A study of Mus musculus with 6 samples.

Results

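Transforming growth factor beta (TGF-beta) must be made, docked on a cell, freed and received before it can act, and 10 genes that cover these steps were followed here in T cells sorted from mouse skin. They are Lrrc32, Tgfb1, Itgb8, Itgav, Furin, Tgfbr1, Tgfbr2, Smad3, Smad7 and Skil, chosen by symbol from the 15106 genes of the deposited count table, and all 10 were found and passed the filter on low counts. The study compared 4 libraries of regulatory T cells (Tregs) with 2 libraries of effector T cells (Teffs). All 6 libraries came from the skin of mice aged 6 weeks with the FOXP3-GFP genotype, a reporter that marks cells expressing Foxp3, the transcription factor that defines Tregs, and no treatment is named for either group. The labels do not say how Teffs were gated, whether cells of several mice were pooled or if each library stands for a different mouse, so p-values measure only the spread between these libraries, which may in part be technical.

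TGF-beta is secreted in a latent form, in which a propeptide wraps the mature growth factor. The protease furin cuts the precursor, the receptor GARP (from Lrrc32) holds the latent complex on the surface of Tregs, and the integrin made of the alpha-v and beta-8 chains (from Itgav and Itgb8) pulls on the propeptide to free the active factor. Free TGF-beta is bound by TGFBR2, which recruits and phosphorylates TGFBR1, and SMAD2 and SMAD3 then carry the signal to the nucleus. SMAD7 blocks the pathway at the receptor, and SKIL represses SMADs in the nucleus. In skin and other barrier tissues the pathway is known for holding T cells in the epithelium and for supporting Foxp3.

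Both places on the precursor where these proteins meet are short, and they are shown because 3 of the 10 genes act on them. They lie in exon 5 of the coding transcript of Tgfb1, on the plus strand of chromosome 7 (GRCm38, GENCODE M21). The integrin site spans chr7:25697127-25697186 as printed and the furin site chr7:25697199-25697270, and capitals mark the codons of the integrin-binding RGD motif and of the furin recognition motif, each found once in frame.
integrin site: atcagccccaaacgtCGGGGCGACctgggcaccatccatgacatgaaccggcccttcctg
furin site: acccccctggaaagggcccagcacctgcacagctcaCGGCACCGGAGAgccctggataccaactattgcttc

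Where a value is given for each library, the order is Treg 1 to Treg 4 and then Teff 1 and Teff 2. The libraries held 4902126 to 7468778 counts in genes, and levels are given as CPM, counts scaled to the size of the library. A count of 3, taken as the floor of a library, came to 0.397 to 0.581 CPM. Foxp3 separated the groups, at 103 to 233 CPM in Tregs against 11.3 and 7.17 CPM in Teffs. The 7 T cell markers examined, such as Cd3e and Cd4, had counts in every library and summed to 4168 to 8565 CPM in Tregs and to 7800 and 8314 CPM in Teffs. Treg 3 stood apart from the other libraries. Its 6 fibroblast markers, such as Col3a1, summed to 1994 CPM, against 3.85 to 8.30 CPM in the other Treg libraries, 176 CPM in Teff 1 and 3.88 CPM in Teff 2. Its keratinocyte markers, 6 of the 7 listed, summed to 722 CPM, against 0.285 to 20.7 CPM in the other Tregs and 116 and 39.1 CPM in Teffs. None of the fibroblast markers was at 0 in Treg 3 or Teff 1, while 1 to 4 of the 6 were at 0 in each other library.

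None of the 10 genes passed edgeR's quasi-likelihood test after Benjamini-Hochberg adjustment over all 11775 genes tested, where 0.0425% of genes passed (0.034% higher and 0.00849% lower in Tregs). At an unadjusted p under 0.05 there were 4 of 10, all higher in Tregs (Lrrc32, Itgb8, Itgav and Tgfbr1), against 2.42% of all genes tested that were higher, 2.31% lower and 4.73% in either direction. DESeq2, an alternative test, called the same 4 genes at an adjusted p under 0.05, against 2.08% of the genes it tested (1.52% higher and 0.564% lower). The authors' deposited table calls 2 of the 10 at a false discovery rate under 0.05, Lrrc32 (0.000285) and Itgb8 (0.0416), both higher in Tregs, against 0.285% of all genes (0.192% higher). Groups did not overlap for 6 of the 10 genes, against 15% of all genes: every Treg library exceeded both Teff libraries for Lrrc32, Tgfb1, Itgb8, Itgav and Tgfbr1 (5.51% of all genes) and lay below both for Smad3 (9.49% of all genes). The median log2 fold change of the 10 genes was 0.87, beside 0.07 over all genes tested. The 10 genes, and the lists used below, were chosen with earlier results of these data known. An excess over all genes may thus come in part from that choice and is no independent result.

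**Figure D1:**
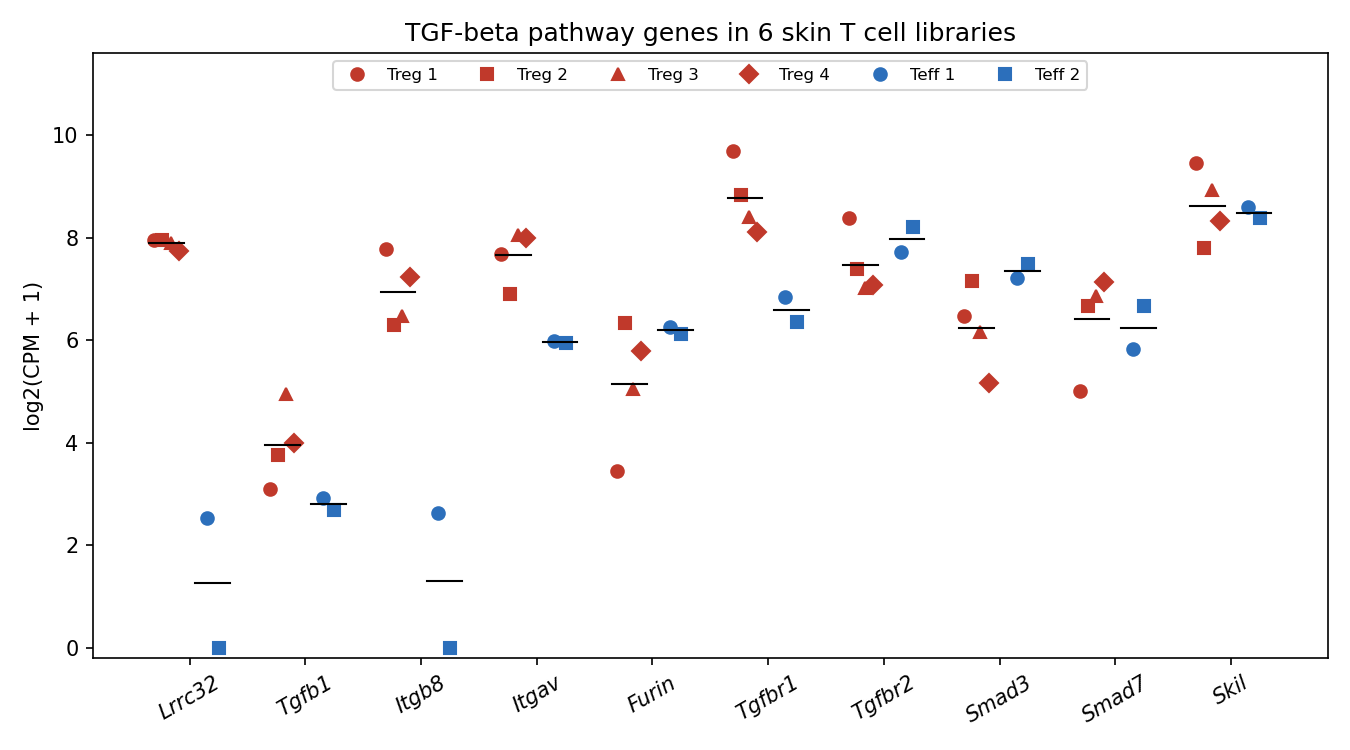
Level of each of the 10 genes in each library, as log2(CPM + 1), with Treg libraries in red, Teff libraries in blue and a bar at each group's mean of the plotted values. Lrrc32 is nearly level across the 4 Treg libraries and is at 4.77 and 0 CPM in Teffs, while Tgfbr2, Furin, Smad7 and Skil overlap between groups.

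Lrrc32 encodes GARP, the docking receptor, and lies on chromosome 7 (98489283 to 98502181; gene coordinates are GRCm38 throughout). It stood at 248, 245, 237 and 213 CPM in Tregs, against 4.77 and 0 CPM in Teffs. Its level differed by 1.16-fold between the highest and the lowest Treg library, with a coefficient of variation of 6.71%, where counting error alone gives 2.64% at its mean count; the other 9 genes varied by 31.8% to 67.8%. The Treg mean of 236 ± 15.8 CPM (SD, n = 4) was 49.5-fold above Teff 1, where 36 counts were found, and at least 406-fold above Teff 2, taken at its floor of 3 counts. edgeR gave a log2 fold change of 6.57 ± 1.35 (SE), with p-values of 0.00122 unadjusted and 0.288 adjusted. Without Teff 1 the remaining Teff library has no counts, and the fitted value depends on the prior count and is no estimate of size. That fit cannot measure the spread of Teffs, so no p-value is given for it. With all 6 libraries, DESeq2 gave an adjusted p of 1.70e-08.

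Level profiles nearest to that of Lrrc32 were sought among all tested genes, as the root mean square difference of centred log2(CPM + 1) over the 6 libraries. The nearest was Ikzf2 (difference 0.31), which encodes the Treg transcription factor Helios, and the next was Itgb8 (0.69). Cep112, a centrosomal protein gene (0.88), Lgmn, the lysosomal protease legumain (0.90), and Il2ra, the high-affinity IL-2 receptor chain (0.99), followed. Each of these was lower in Teff 2 than in Teff 1, with Cep112 at 2.65 and 0 CPM and Ikzf2 at 89.6 and 9.50 CPM, as Lrrc32 was. Choosing genes by likeness over these same 6 libraries favours that shared order, so it is not a separate result.

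Tgfb1, the ligand gene (chromosome 7, 25687002 to 25705077), was sparse in these libraries. It had 42, 79, 170 and 105 counts in Tregs and 50 and 28 counts in Teffs, or 7.58, 12.6, 29.8 and 14.98 CPM against 6.62 and 5.43 CPM. Every Treg library was above the Teffs, but Treg 1, with an exact 95% Poisson interval of 5.46 to 10.2 CPM that covers counting error only, overlapped within that error with Teff 1 at 4.91 to 8.73 CPM. The log2 fold change was 1.43 ± 1.498 (SE; 95% interval -2.03 to 4.88), and its edgeR adjusted p was 1.0. The highest library was Treg 3, which also carried the fibroblast and keratinocyte transcripts. Without it the log2 fold change was 0.96. The part of other cells in the level of Treg 3 was not tested.

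Treg 3 stood apart in other latency genes too. The latency list held 10 genes, Tgfb1 and Lrrc32 among them, of which 8 were tested and none was called by edgeR. Lrrc32 alone had an unadjusted p under 0.05, against 4.73% of all genes tested. Ltbp1, which tethers latent TGF-beta to the matrix, reached 363 CPM in Treg 3, with 64.9 CPM found in Teff 1 and none in the other 4 libraries. Over this list and the list of activators, 8 of 20 genes besides those followed here were above 10 CPM in Treg 3 and under 1 CPM in every other Treg library: Tgfb2, Ltbp1, Ltbp2, Fbn1, Pcsk5, Itgb6, Thbs1 and Mmp2, at 14.7 to 363 CPM. Treg 3 is also the library with the highest fibroblast markers, and the part of fibroblasts in these values was not tested. It had counts in 12605 genes, against 9602, 9838 and 11074 in Treg 1, Treg 2 and Treg 4. The share of all genes that meet the same limits was not worked out. The 8 of 20 are therefore not shown to be a trait of these lists. Nrros, which encodes a docking protein related to GARP and known from myeloid cells, overlapped between groups, at 113, 183, 32.1 and 153 CPM in Tregs, against 115 and 131 CPM in Teffs.

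**Figure D2:**
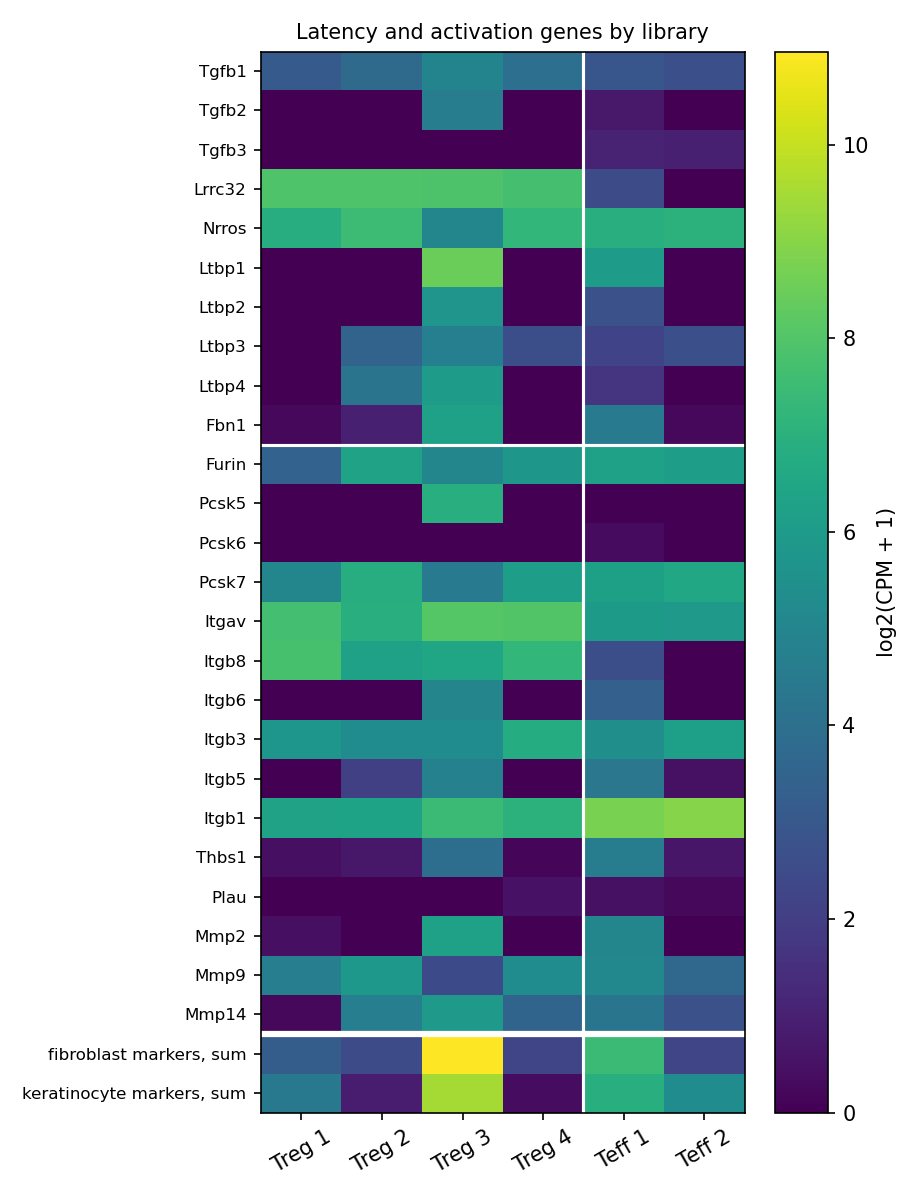
Levels of latency genes (upper block) and activator genes (middle block) in each library, as log2(CPM + 1), with the summed fibroblast and keratinocyte markers in the lowest rows. Ltbp1, Ltbp2, Fbn1, Itgb6 and Mmp2 are brighter in Treg 3 than in Teff 1, as the fibroblast markers are. Pcsk5 and Tgfb2 are at 118 and 23.7 CPM in Treg 3 but at 0 and 0.662 CPM in Teff 1. Thbs1 is higher in Teff 1 (23.6 CPM) than in Treg 3 (14.7 CPM). Lrrc32 and Itgb8 are bright in all 4 Treg libraries.

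Itgb8, the beta-8 chain of the activating integrin (chromosome 12, 119158022 to 119238802), stood at 220, 77.3, 87.7 and 150.2 CPM in Tregs, against 5.16 and 0 CPM in Teffs. Every Treg library lay above both Teff libraries. The Treg mean of 134 ± 65.8 CPM (SD, n = 4) was 25.9-fold above Teff 1 and at least 230.0-fold above the floor of 3 counts in Teff 2. On the log2 scale the difference was 5.65 ± 1.52 (SE), with an edgeR p of 0.00585 unadjusted and 0.619 adjusted. Unlike Lrrc32, its level differed by 2.84-fold between Treg libraries. Without Treg 3, the library with the most fibroblast and keratinocyte transcripts, the log2 fold change was 5.82. Among Teffs, the counts of both Itgb8 and Lrrc32 came from Teff 1. Fibroblast markers summed to 176 CPM in Teff 1 and 3.88 CPM in Teff 2, and keratinocyte markers to 116 and 39.1 CPM. Foxp3 was at 11.3 CPM in Teff 1 and 7.17 CPM in Teff 2. The part of other cells in the levels of either group was not tested.

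Itgav, the alpha-v chain (chromosome 2, 83724397 to 83806916), was present in both groups. It stood at 205, 118, 265 and 255 CPM in Tregs, against 62.6 and 60.3 CPM in Teffs, so that the lowest Treg library was still above both Teff libraries. The means were 211 ± 67.0 CPM (SD, n = 4) and 61.4 ± 1.66 CPM (SD, n = 2). Between groups the log2 fold change was 1.78 ± 0.48 (SE; 95% interval 0.67 to 2.88), with an edgeR p of 0.00600 unadjusted and 0.619 adjusted. It was 1.66 without Treg 3, the highest library. A gene model on the other strand covers 5.9% of the exonic bases of Itgav, and the labels name no strand setting for the counting.

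The alpha-v chain pairs with several beta chains, and the levels of the other beta chains are given beside Itgb8. Of the 12 activator genes tested, none was called by edgeR. At an unadjusted p under 0.05 there were 2 higher (Itgb8 and Itgav) and 1 lower, against 2.42% and 2.31% of all genes tested. The lower one was Itgb1, the beta-1 chain shared by many integrins, at 77.6, 80.5, 178 and 132 CPM in Tregs, against 430 and 497 CPM in Teffs (log2 fold change -1.98 ± 0.42, edgeR adjusted p = 0.332). Itgb3 overlapped between groups, at 38.9 to 109 CPM in Tregs, against 43.2 and 72.9 CPM in Teffs. Itgb5 and Itgb6 were highest in Treg 3, at 26.8 and 31.2 CPM, and Itgb6 was at 0 in the other Treg libraries. In Teff 1 and Teff 2, Itgb5 was at 19.5 and 0.388 CPM and Itgb6 at 9.40 and 0 CPM. Set per kilobase of exon, Itgb8 stood at 1.04, 0.634, 0.322 and 0.571 times Itgav in Tregs and at 0.0801 and 0 times in Teffs.

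Furin, the convertase gene (chromosome 7, 80388585 to 80405436), showed the widest spread among Tregs. It stood at 9.92, 79.4, 32.1 and 54.2 CPM in Tregs, an 8.0-fold range, and at 75.9 and 68.6 CPM in Teffs. Groups overlapped, since Treg 2 was above both Teff libraries. Its log2 fold change was -0.72 ± 0.85 (SE; 95% interval -2.67 to 1.23), and the edgeR adjusted p was 1.0. Pcsk7, a convertase of the same family, was likewise lower in Treg 1 and Treg 3 (31.9 and 22.3 CPM) than in Treg 2 and Treg 4 (111 and 70.1 CPM), with Teffs at 75.2 and 90.7 CPM.

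Among the receptor genes, Tgfbr1 (chromosome 4, 47353222 to 47414931), the chain that phosphorylates SMADs, stood at 827, 456, 338 and 277 CPM in Tregs, against 114 and 80.4 CPM in Teffs, with every Treg library above both Teff libraries. The means were 475 ± 246 CPM (SD, n = 4) and 97.0 ± 23.4 CPM (SD, n = 2). edgeR gave a log2 fold change of 2.29 ± 0.55 (SE; 95% interval 1.02 to 3.56), with p-values of 0.00316 unadjusted and 0.472 adjusted, and a DESeq2 adjusted p of 0.00339. Without Treg 1, the highest library, the log2 fold change was 1.88.

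Tgfbr2 (chromosome 9, 116084293 to 116175360), the chain that binds the ligand, stood at 332, 166, 128 and 134 CPM in Tregs, against 209 and 296 CPM in Teffs. Groups overlapped through Treg 1, which held the highest level of all, while the other Treg libraries lay below both Teff libraries. The log2 fold change was -0.41 ± 0.48 (SE; 95% interval -1.53 to 0.70), with an edgeR adjusted p of 1.0, and it was -0.83 without Treg 1.

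Because both receptor genes were highest in Treg 1, their counts were set against each other within each library, a ratio that the scaling of libraries does not touch and that was chosen after the values were seen. There were 2.49, 2.75, 2.65 and 2.07 Tgfbr1 counts per Tgfbr2 count in Tregs, and 0.544 and 0.271 in Teffs. Tgfbr1 thus gave more counts than Tgfbr2 in all 4 Treg libraries and fewer in both Teff libraries. Counts of Tgfbr1 alone ranged 2.98-fold among Tregs on the CPM scale, while the ratio ranged 1.33-fold among Tregs and 2.0-fold between the Teff libraries. Per kilobase of exon the ratio was 3.12, 3.45, 3.32 and 2.59 in Tregs and 0.682 and 0.340 in Teffs. No test is given for this ratio.

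**Figure D3:**
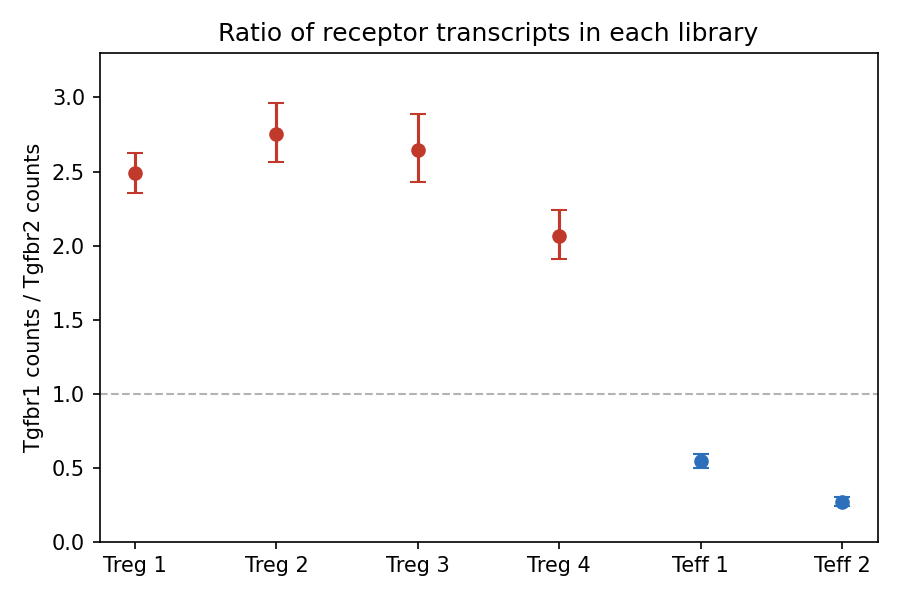
Counts of Tgfbr1 divided by counts of Tgfbr2 in each library, with 95% intervals from the exact binomial (Clopper-Pearson) limits, which cover counting error only, and a dashed line at a ratio of 1. The Treg libraries sit between 2.07 and 2.75 and the Teff libraries at 0.544 and 0.271.

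The start regions of both receptor genes are shown for comparison, as the 250 bases before a RefSeq start (GRCm38.p6), with CG pairs in capitals. Tgfbr1 has 2 such starts in the table, and the one printed lies at the start of the gene; neither printed window overlaps an annotated exon. The window of Tgfbr1 is chr4:47352972-47353221 on the plus strand, and that of Tgfbr2 is chr9:116175364-116175613 on the minus strand, printed 5′ to 3′.
Tgfbr1: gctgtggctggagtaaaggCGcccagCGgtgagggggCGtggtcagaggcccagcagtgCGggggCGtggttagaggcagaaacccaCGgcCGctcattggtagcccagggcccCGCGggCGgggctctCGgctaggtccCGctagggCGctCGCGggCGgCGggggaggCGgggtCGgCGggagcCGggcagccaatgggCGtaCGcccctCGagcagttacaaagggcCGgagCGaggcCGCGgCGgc
Tgfbr2: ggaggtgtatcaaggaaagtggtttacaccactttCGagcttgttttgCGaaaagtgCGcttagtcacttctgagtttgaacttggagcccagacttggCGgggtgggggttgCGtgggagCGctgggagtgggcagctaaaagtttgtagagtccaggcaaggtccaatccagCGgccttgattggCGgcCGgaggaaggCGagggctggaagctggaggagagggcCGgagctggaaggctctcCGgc
The Tgfbr1 window holds 29 CG pairs and 74.8% G or C, and the Tgfbr2 window 12 CG pairs and 58.4%, where the medians over 32536 RefSeq windows of this length are 6 pairs and 52.4%. Neither printed window holds, on either strand, the SMAD motifs GTCTAGAC or CAGACA, the forkhead motif TGTTTAC or the STAT motif TTCNNNGAA, which occur in 0.169%, 17%, 3.17% and 7.04% of all windows. The window of the other Tgfbr1 start, at chr4:47385966-47386215, holds 3 CG pairs, 52.8% G or C and 1 CAGACA. The promoter table matched 7 of the 10 genes.

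Among receptors and co-receptors, of the 8 receptor genes tested, 5 had a positive and 3 a negative log2 fold change, and none was called by edgeR. All 11775 genes tested held 6293 positive and 5482 negative values. Tgfbr1 alone had an unadjusted p under 0.05, against 4.73% of all genes tested. Tgfbr3, the co-receptor betaglycan, which presents ligand to TGFBR2, was at 40.8, 0.320, 24.0 and 0 CPM in Tregs, against 77.6 and 104 CPM in Teffs. All Treg libraries lay below both Teff libraries, and the spread among Tregs left a log2 fold change of -2.48 ± 1.85 (SE, edgeR adjusted p = 1.0). Nrp1, a surface protein of Tregs that also binds latent TGF-beta, overlapped between groups, at 26.7 to 139 CPM in Tregs, against 63.8 and 57.4 CPM in Teffs.

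Smad3 (chromosome 9, 63646767 to 63757994), the signal carrier, had its lowest values in Tregs. It stood at 87.5, 141, 70.3 and 35.0 CPM in Tregs, against 147 and 178 CPM in Teffs, so that all Treg libraries lay below both Teff libraries, Treg 2 only just. On the log2 scale the difference was -0.96 ± 0.57 (SE; 95% interval -2.27 to 0.35), with an edgeR p of 0.130 unadjusted and 1.0 adjusted. Smad2 and Smad4, its partners, overlapped between groups, at 27.5 to 181 and 35.0 to 79.4 CPM in Tregs with Teffs at 141 and 103 CPM for Smad2 and 64.9 and 83.5 CPM for Smad4. Of the 7 SMADs and adaptors tested, none had an unadjusted p under 0.05.

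Smad7 (chromosome 18, 75367529 to 75395935), an inhibitor that TGF-beta itself induces, did not separate the groups. It stood at 31.2, 101, 115 and 140.0 CPM in Tregs, against 55.7 and 100.4 CPM in Teffs. Between groups the log2 fold change was 0.31 ± 0.67 (SE; 95% interval -1.23 to 1.85), with an edgeR adjusted p of 1.0, and its sign turned without Teff 1 (-0.07). Among Tregs, Treg 1 had the lowest Smad7 and Furin and the highest Tgfbr1 and Skil.

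Skil (chromosome 3, 31095058 to 31122577) encodes SNON, a co-repressor that binds SMADs and is both degraded and induced in response to TGF-beta. It stood at 704, 222, 485 and 318 CPM in Tregs, against 384 and 332 CPM in Teffs, with Teffs inside the range of Tregs. Its log2 fold change was 0.27 ± 0.48 (SE; 95% interval -0.84 to 1.39), with an edgeR adjusted p of 1.0, and it was -0.07 without Treg 1. Ski, its relative, was at 241, 223, 128 and 235 CPM in Tregs, against 241 and 437 CPM in Teffs, with a log2 fold change of -0.72 ± 0.41 (SE, edgeR adjusted p = 1.0).

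Of the 15 SMAD inhibitors, co-repressors and ubiquitin enzymes tested, 13 had a positive and 2 a negative log2 fold change. Over all 11775 genes tested, 6293 were positive and 5482 negative. Their median was 0.48, beside 0.07 over all genes, and none had an unadjusted p under 0.05. Of the 15, 1 had all Treg libraries above both Teff libraries and 1 (Ski) all below, against 5.51% and 9.49% of all genes. The first was Pmepa1, a TGF-beta-induced inhibitor that keeps SMADs from the receptor, at 108, 117, 96.1 and 116 CPM against 47.5 and 60.5 CPM. Its Treg values lay close together. Its log2 fold change was 1.02 ± 0.47 (SE), with an edgeR p of 0.0608 unadjusted and 1.0 adjusted.

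**Figure D4:**
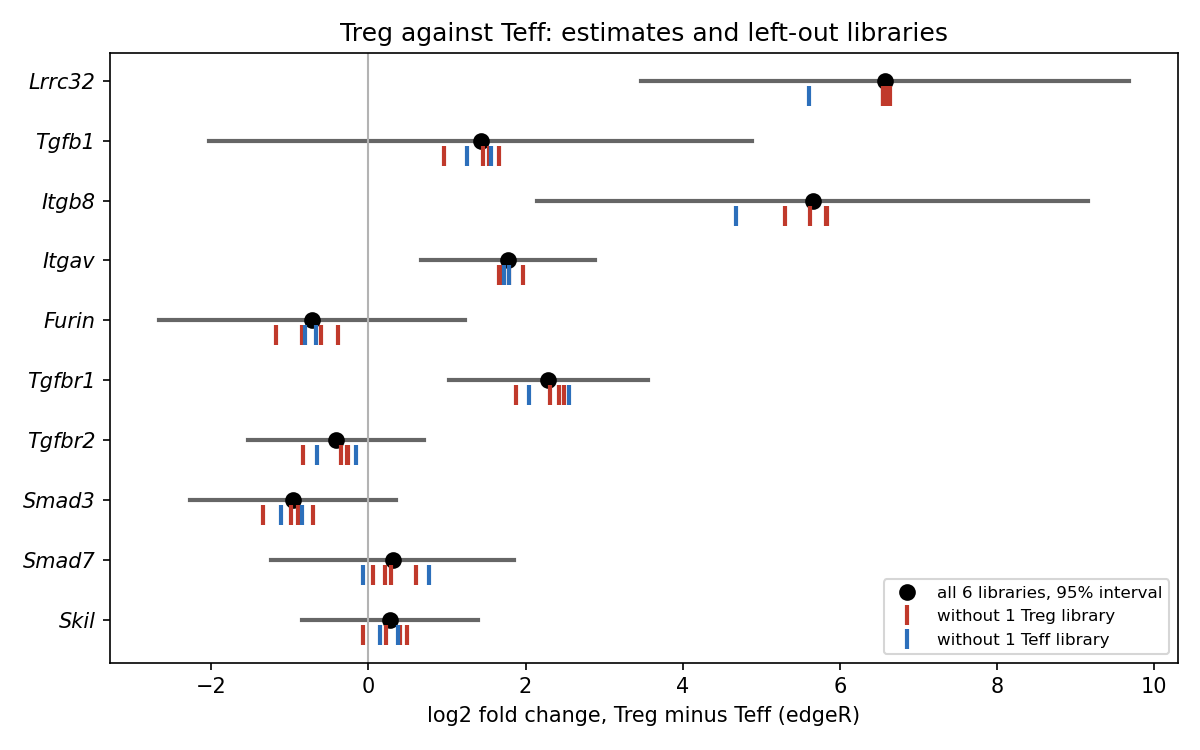
Log2 fold change of each gene, Treg minus Teff, from edgeR with all 6 libraries (points, with 95% intervals) and with 1 library left out (ticks, red for a Treg and blue for a Teff library); values for Lrrc32 and Itgb8 without Teff 1 are not drawn, since the other Teff library has no counts. The intervals of Lrrc32, Itgb8, Itgav and Tgfbr1 lie above 0, and those of the other 6 genes cross it.

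Genes known to respond to TGF-beta in T cells were read from a list of induced and a list of repressed genes. Of the 11 induced genes tested, 5 had a positive and 6 a negative log2 fold change, beside 6293 and 5482 of all 11775 genes. None was called by edgeR. At an unadjusted p under 0.05 there were 2, Foxp3 and Itgae, both higher in Tregs, against 2.42% of all genes tested that were higher. Itgae, the CD103 chain that holds T cells to the epithelium and a standard readout of TGF-beta, was at 2635, 1931, 1199 and 1865 CPM in Tregs, against 837 and 1112 CPM in Teffs. Each Treg library exceeded both Teffs. Its log2 fold change was 0.97 ± 0.39 (SE), with an edgeR p of 0.0375 unadjusted and 0.938 adjusted. Foxp3, the gene behind the reporter, had a log2 fold change of 4.19 ± 0.61 (edgeR adjusted p = 0.131), and other gene models cover 31.5% of its exonic bases. Because Foxp3 defines Tregs, its higher level follows from the groups compared and cannot be read as a response to TGF-beta.

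Of the 11 genes tested that TGF-beta is known to repress in T cells, 8 had a negative and 3 a positive log2 fold change. Over all 11775 genes tested, 5482 were negative and 6293 positive. Their median was -2.20, beside 0.07 over all genes. None was called by edgeR. DESeq2 called 4, all lower in Tregs (Il2, Ifng, Cx3cr1 and Gzma), against 0.564% of the genes it tested that were lower. At an unadjusted edgeR p under 0.05 there were 5 lower and 1 higher, against 2.31% and 2.42% of all genes tested. The higher one was Gzmb, a cytotoxic granzyme that Tregs also use, with 1708, 468, 815 and 1146 CPM in Tregs, against 386 and 398 CPM in Teffs. The lower ones included S1pr1, a receptor for tissue exit, with 45.8 to 116 CPM in Tregs, against 171 and 140.3 CPM in Teffs. Il2, which encodes the cytokine that drives T cell proliferation, reached 101 and 96.9 CPM in Teffs and had 3 counts in Treg 1 and none in the other Treg libraries (edgeR adjusted p = 0.217). Ifng, the main Th1 cytokine, was at 16.2, 43.8, 10.2 and 47.9 CPM in Tregs, against 232 and 393 CPM in Teffs (adjusted p = 0.283), and a gene model on the same strand covers 25.9% of its exonic bases. Cx3cr1, a chemokine receptor, and Gzma, a granzyme, had no counts in any Treg library, where the floor of 3 counts lay between 0.428 and 0.541 CPM. Teffs held Cx3cr1 at 30.3 and 40.5 CPM and Gzma at 47.0 and 4.26 CPM. The list holds genes that other Treg and Th1 factors control as well, and markers of CD8 T cells were lower in Tregs too: Cd8a and Cd8b1 summed to 0.180 to 65.6 CPM in Tregs and to 142 and 93.6 CPM in Teffs. Markers of gamma-delta T cells, 2 of the 4 listed, were at 0 in every Treg library and summed to 15.5 and 14.9 CPM in Teffs. The part of these cells in the values was not tested, and in bulk libraries fewer cells of a type and less RNA per cell cannot be told apart. Over the 58 pathway and response genes tested besides the 10, none was called by edgeR, and the median log2 fold change was 0.20. At an unadjusted p under 0.05 there were 3 higher, Foxp3 among them, and 6 lower, against 2.42% and 2.31% of all genes tested.

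The levels of the 10 genes can be set against each other once divided by exon length, here as CPM per kilobase. In Tregs the order ran from Tgfbr1 (72.6 ± 37.7, SD, n = 4), Lrrc32 (50.4 ± 3.38) and Skil (44.6 ± 21.8) through Tgfbr2 (23.2 ± 11.8), Smad7 (21.4 ± 10.3), Itgav (19.6 ± 6.24), Smad3 (15.04 ± 7.94) and Itgb8 (12.1 ± 5.95) to Furin (4.78 ± 3.24) and Tgfb1 (3.22 ± 1.89). Neighbours from Tgfbr1 to Itgb8, and Furin and Tgfb1, differed by less than 1 SD of the more variable one. In Teffs the order began with Skil (36.9 ± 3.82, SD, n = 2), Tgfbr2 (30.8 ± 7.56) and Smad3 (29.3 ± 3.99), went on with Smad7 (17.3 ± 6.98), Tgfbr1 (14.8 ± 3.59), Furin (7.87 ± 0.558) and Itgav (5.72 ± 0.154), and ended with Tgfb1 (1.19 ± 0.167), Lrrc32 (0.508 ± 0.719) and Itgb8 (0.233 ± 0.330). By the same measure, Skil, Tgfbr2 and Smad3 could not be ordered, nor Smad7 and Tgfbr1, nor the lowest 3. By mean level the docking receptor ranked 2 of 10 in Tregs and 9 of 10 in Teffs, and the ligand had the lowest mean of the 10 in Tregs. None of these ranks is set apart from its neighbours by that measure. With the longest annotated transcript as length, Tgfb1 was at 6.32 and Furin at 7.65 CPM per kilobase in Tregs, and Skil (64.4) stood above Lrrc32 (51.6).

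Other cells are known to carry GARP or the integrin, and their markers are given here. Platelet markers, 3 of the 5 listed, summed to 2.88 to 13.8 CPM in Tregs, against 6.09 and 2.52 CPM in Teffs, and Gp9 was at 0 outside Treg 3. Markers of dendritic and Langerhans cells, 5 of the 6 listed and mostly MHC class II genes, summed to 3018, 2528, 600.1 and 9743 CPM in Tregs and to 1638 and 5289 CPM in Teffs, so that groups overlapped, and Itgax was at 0 in 4 of the 6 libraries. Epcam, an adhesion gene of Langerhans and epithelial cells that is on the same list, was higher in every Treg library than in both Teff libraries, and lowest in Teff 2, as Lrrc32 and Itgb8 were. It stood at 48.2, 33.8, 17.9 and 53.2 CPM in Tregs, against 1.46 and 0.388 CPM in Teffs, with an edgeR adjusted p of 0.628 and a DESeq2 adjusted p of 4.95e-06. The other genes of this list overlapped between groups. H2-Aa, H2-Ab1 and Cd74 were higher in Teff 2 (1129, 879 and 3281 CPM) than in Teff 1 (322, 355 and 957 CPM). Itgax was at 2.78 CPM in Teff 1 and 0 in Teff 2. The part of platelets, dendritic cells and Langerhans cells in the levels of Lrrc32 and Itgb8 was not tested.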

How the data were processed

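RNA of 4 Treg and 2 Teff libraries was sequenced. The authors deposited 1 table with a column of unnormalized gene counts for each of the 6 libraries, as its header and whole-number values show. It also holds their own comparison: a log2 fold change and mean log2 CPM, and a p-value and false discovery rate that the authors deposited, whose test the labels do not state. The submitters' processing notes name Bowtie2 2.1.0.0, HTSeq 0.6.1, TopHat2 2.0.12, CASAVA 1.8.2, SAMtools 0.1.19.0 and the build mm10. Per the labels' protocols, a SMARTer kit for low input was used; annotation and strand setting are unstated. The table has 3 rows that name no gene, with 88.0% to 90.2% of entries, and these entered neither library sizes nor tests.

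Counts were fitted with edgeR 4.0.16 (R 4.3.3, limma 3.58.1; filterByExpr with a count minimum of 10, TMM scaling, quasi-likelihood F test on group alone, all 6 libraries, coded Treg minus Teff), with calls at p under 0.05 after Benjamini-Hochberg adjustment over 11775 genes. The common biological coefficient of variation was 1.20. An exact permutation test of 4 against 2 libraries cannot go below p = 0.0667 (two-sided). DESeq2 1.42.0, other scalings and filters, left-out libraries and the replicate block were alternatives. Code was tested on simulated data, where a pass was required only at a biological coefficient of variation below that of these data. It does not show how the test performs on data this variable. Named genes were the 10 genes, up to 4 further genes per pathway list with the largest fold change among those whose groups did not overlap, every called gene, and the 5 nearest to Lrrc32; other list genes were chosen after their values were seen. The 10 genes and the lists were chosen with earlier results of these data known. Exon lengths and coordinates are from GENCODE M21 (GRCm38), promoter windows from RefSeq.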

Additional observations from a re-analysis of the deposited data

Results flagged for a closer look

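Of 22 genes checked for a Treg library far from the other 3, where chance gives about 1 in 20 groups, 2 met the criterion. For Ski, Treg 3 was low at 128 CPM, and its gap to the next library took a share of 0.84 of the whole Treg range. For Il2 the share was 1, which any gene with counts in a single library must give: Treg 1 had 3 counts (0.541 CPM), the floor of that library, and it is not shown to differ from the others. None of the 10 genes followed here had such a library.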

How the results depend on the processing

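Over all genes edgeR called 4 higher and 1 lower. DESeq2 called 159 and 59, no filter gave 17 and 2, the replicate block 9 and 6, a threshold of 0.1 gave 7 and 2, and a threshold of 0.01 gave 0 and 0. Leaving out 1 Treg library gave 0 higher and 0 lower, and 618 to 779 genes passed an unadjusted p under 0.05. Where a Teff library is left out, the remaining one is assumed to vary like the Tregs, so no counts of genes are given. The same holds for leaving out Treg 3 and Teff 1 together, which was chosen after seeing the data. DESeq2 called 6 of the 58 other pathway genes tested (Il2, Ifng, Foxp3, Cx3cr1, Itgb1 and Gzma), against 2.08% of all genes it tested. With no filter, edgeR called 1 (Foxp3, which defines Tregs). The main edgeR fit called 0, and 9 had an unadjusted p under 0.05, against 4.73% of all genes tested. Among the 10 genes, DESeq2 called Lrrc32 (log2 fold change 6.63), Itgb8 (5.71), Itgav (1.8) and Tgfbr1 (2.32). Without 1 library, Lrrc32 ranged from 5.60 to 13.45 and Itgb8 from 4.68 to 12.64, the highest without Teff 1, where Teffs had no counts and the fitted value is no estimate of size. Smad7 ranged from -0.068 (without Teff 1) to 0.77 and Skil from -0.066 (without Treg 1) to 0.49. Smad7 was -0.15 without Treg 3 and Teff 1. The other 8 genes kept their sign under all 13 alternatives. Upper-quartile scaling moved the median log2 fold change of all genes from 0.07 to -0.04. The cause of these differences was not tested.

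Treg 3 and Treg 4 have no Teff partner, so the replicate block drops them from the contrast. Under the block Smad7 was -0.41, while the median over all genes was -0.64. Same-numbered libraries deviated together weakly or not at all (correlations of -0.01 and 0.17), and nothing says that a number marks a shared animal. With the longest transcript as length, the level per kilobase was 29.9 for Itgav and 6.32 for Tgfb1 in Tregs, and 8.71 for Itgav, 2.34 for Tgfb1, 12.6 for Furin and 53.3 for Skil in Teffs. Depth limits Tgfb1, with 28 to 170 counts a library, and leaves the folds of Lrrc32 and Itgb8 over Teff 2, with 0 counts each, as lower bounds.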
